A study of Mus musculus with 44 samples.

Results

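The genes described are 10 mouse liver genes that mark the hepatocytes around the central vein or that are transcriptional targets of Wnt signalling: Glul, Oat, Slc1a2, Rhbg, Lect2, Tbx3, Axin2, Lgr5, Rnf43 and Znrf3. They were taken by name from a count table of 35249 genes, and all 10 passed the filter on low counts that left 14862 genes for testing. The study fed wild-type (WT) mice, Ripk3 knockout mice (Ripk3-/-, here Ripk3KO) and Mlkl knockout mice (Mlkl-/-, here MlklKO) from 2 months of age for 6 months. Both genes act in necroptosis, a lytic and regulated form of cell death, in which the kinase RIPK3 activates MLKL and MLKL breaks the plasma membrane. The diets were normal chow (the control diet) and a pair of diets that lack choline, with low fat (CD-LFD) or with high fat (CD-HFD), in a study of liver cancer. Whole liver RNA was sequenced in 44 libraries: 6 WT mice on each of the 3 diets, 6 control, 3 CD-LFD and 4 CD-HFD Ripk3KO mice, and 6 control, 4 CD-LFD and 3 CD-HFD MlklKO mice. The labels name neither the knockout alleles, the sex, the litter nor the hour of collection, and both knockouts are described without a tissue restriction.

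The liver lobule is divided along the path of blood from the portal tract to the central vein, and hepatocytes at its ends express different enzymes. Endothelial cells of the central vein release Wnt ligands and R-spondin, which hold beta-catenin active in the nearest hepatocytes. These cells make glutamine from ammonia through glutamine synthetase, the product of Glul. LGR5 binds R-spondin, RNF43 and ZNRF3 are ubiquitin ligases that remove Wnt receptors from the membrane, and AXIN2 is a scaffold of the complex that degrades beta-catenin, so the pathway induces its own modulators. Loss of beta-catenin removes Glul, Oat and Slc1a2 from the pericentral layer, while liver tumours with activated beta-catenin are known for high levels of these genes.

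Promoter windows of 6 of the 10 genes were found in a RefSeq table on build GRCm38.p6: Glul, Oat, Axin2, Rnf43 (a pair of starts), Slc1a2 and Lect2. They are shown because these genes did not move together between diets, and because the factors at the end of the Wnt pathway, TCF and LEF, bind a short known word. The words searched were CTTTGAA and CTTTGAT on both strands, in the 250 bases before each start. A match was found in 2 of the 7 windows, and in 7.48% of all 32851 windows of that length. The Glul window (chr1:153899679-153899928, plus strand) held none, and the windows of Lect2 (chr13:56548539-56548788, minus strand) and Slc1a2 (chr2:102706188-102706437, plus strand) held 1 each, on the strand opposite to the gene. Each is written 5′ to 3′ along the gene, with the match in capitals.
Glul: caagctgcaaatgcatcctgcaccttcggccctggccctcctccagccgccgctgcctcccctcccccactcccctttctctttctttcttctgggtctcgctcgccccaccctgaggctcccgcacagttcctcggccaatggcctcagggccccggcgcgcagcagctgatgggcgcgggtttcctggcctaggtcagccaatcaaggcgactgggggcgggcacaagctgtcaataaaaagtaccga
Lect2: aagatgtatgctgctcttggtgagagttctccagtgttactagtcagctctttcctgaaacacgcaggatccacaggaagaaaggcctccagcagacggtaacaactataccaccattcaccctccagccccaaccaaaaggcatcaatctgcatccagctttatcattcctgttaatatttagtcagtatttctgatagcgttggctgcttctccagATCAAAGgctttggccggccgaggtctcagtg
Slc1a2: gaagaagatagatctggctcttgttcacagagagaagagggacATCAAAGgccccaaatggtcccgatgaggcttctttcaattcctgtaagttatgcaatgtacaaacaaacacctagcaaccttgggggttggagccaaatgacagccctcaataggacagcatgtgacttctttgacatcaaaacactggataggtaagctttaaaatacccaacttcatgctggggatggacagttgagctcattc
The match lay 32 to 26 bases before the start in Lect2 and 207 to 201 bases before it in Slc1a2. It is a description of letters in these windows, and enhancers farther away were not searched.

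Total counts ran from 2476268 to 12471844 in 43 libraries and reached 88204703 in WT CD-LFD replicate 3. Ripk3 was at 0 to 1.01 CPM (counts scaled to the library total) in the 6 Ripk3KO control libraries, against 0.439 to 4.78 in WT control (median 1.08). The library labelled Ripk3KO control replicate 5 was the one at 1.01 CPM (9 counts), inside the WT range, and the other 5 had 0 to 0.263. Without it the counts of called genes among the 10 were the same for Ripk3KO control against WT control (0) and for CD-LFD (4) and CD-HFD (4) against Ripk3KO control. Mlkl was still counted in MlklKO (median 1.79 CPM on control diet, 4.80 in WT control), and whether those reads lie in the deleted part cannot be seen in gene totals. On CD-HFD the library labelled MlklKO CD-HFD replicate 1 had 14.45 CPM of Mlkl (72 counts), beside 6.02 and 3.55 in the other MlklKO CD-HFD libraries and 17.2 to 22.6 in WT, so its level lay between those of the genotypes. Without that library, the counts of called genes among the 10 were 5 of 10 for MlklKO CD-HFD against control and 0 against WT, as with it, and 3 in place of 5 against CD-LFD. WT control replicates 5 and 6 stood apart by the share of counts in predicted genes (0.557% and 0.757%, against 0.321% to 0.367% in the other WT control libraries), and so did WT CD-LFD replicates 5 and 6 (0.656% and 0.67%, against 0.382% to 0.495%). Without both of the latter, Tbx3 on CD-LFD against control (adjusted p = 0.0736) and Lect2 between the choline-deficient diets (adjusted p = 0.0867) lost their calls in WT, and the other calls of the 10 genes in comparisons with WT CD-LFD were kept. Levels below are CPM scaled by TMM, a correction for library composition. They are not divided by gene length and are compared between samples, not between genes. Changes are log2 differences with their standard error (SE) and an adjusted p from edgeR's quasi-likelihood test with Benjamini-Hochberg adjustment over all tested genes. A gene is called where that p is under 0.05, and p-values measure the spread between these samples.

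Diet moved these genes in opposite directions. Over the 9 comparisons of diets within a genotype, 16 of 90 tests called a rise and 24 a fall, while the 6 comparisons of a knockout with WT on the same diet called 3 of 60. The shares of all genes called in these comparisons ran from 8.83% to 47.7% for diets and from 0% to 27.1% for knockouts. In WT, CD-LFD raised Glul, Lect2 and Rhbg and lowered Tbx3, so that 4 of 10 genes were called, against 27.7% of all genes. On CD-HFD, Lect2 and Rhbg rose and Oat, Lgr5, Rnf43 and Tbx3 fell, which made 6 of 10 against 47.7% of all genes. Between the choline-deficient diets 6 of 10 were lower on CD-HFD and none higher, where 21.1% of all genes were called, 7.40% as lower. The median change of the 10 genes in these 3 comparisons was 0.28, -0.29 and -0.64, and that of all genes -0.03, -0.07 and -0.01. Library size as the only scaling moved the median of all genes up, to 0.27 on CD-LFD and 0.43 on CD-HFD. That of the 10 genes was then 0.58 on CD-LFD (5 higher and none lower) and 0.22 on CD-HFD (4 higher and 2 lower), above and below the median of all genes as with TMM. Without WT control replicates 5 and 6, 3 were higher and 2 lower on CD-LFD, and 2 higher and 3 lower on CD-HFD.

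**Figure D1:**
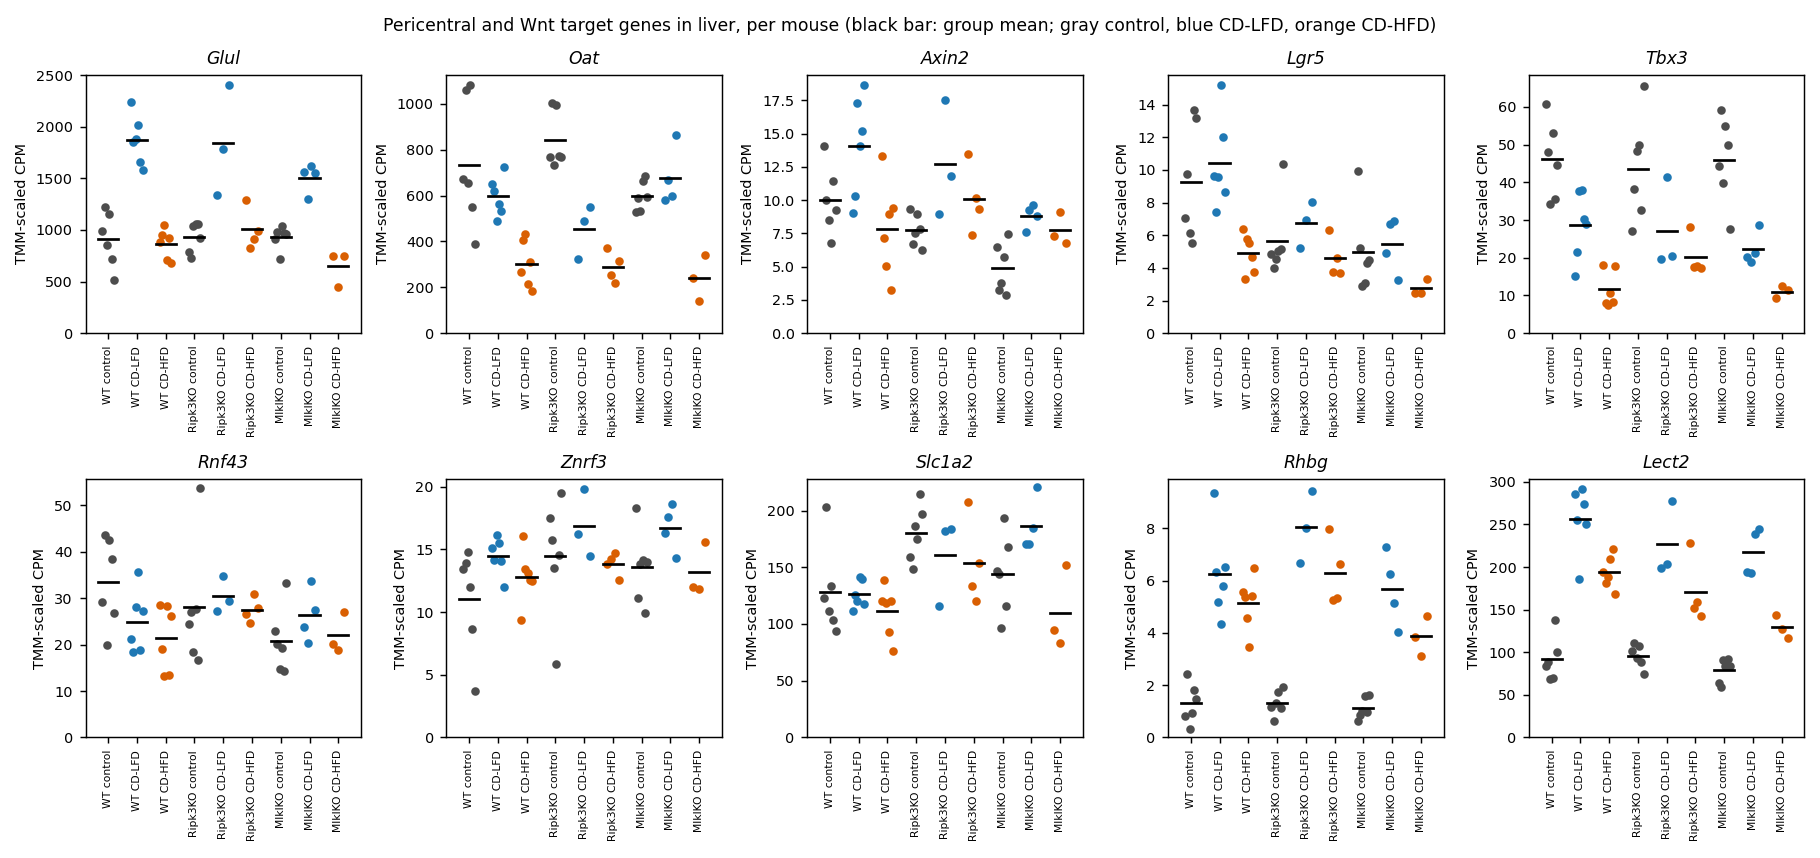
Level of each of the 10 genes in every mouse (TMM-scaled CPM, y axis from 0) for the 9 groups of genotype and diet on the x axis, with the group mean as a black bar. Glul is highest on CD-LFD, with all CD-LFD mice at 1304 or above and all others at 1293 or below, Rhbg and Lect2 are higher on both choline-deficient diets, and Tbx3 has its lowest means on CD-HFD.

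Glul was the clearest mark of CD-LFD. Its level was 519 to 1227 CPM in WT control (median 922), 1581 to 2243 on CD-LFD (median 1865) and 677 to 1048 on CD-HFD (median 901). Every WT CD-LFD mouse was above every WT mouse on the other diets, and the ranges on control and CD-HFD overlapped. The rise on CD-LFD was 1.04 ± 0.17 (log2, SE; adjusted p = 1.57e-05), and CD-HFD differed from control by -0.07 ± 0.17 (adjusted p = 0.745). CD-HFD was lower than CD-LFD by -1.11 ± 0.17 (adjusted p = 5.49e-06). Both knockouts also had their highest mean on CD-LFD. In Ripk3KO the 3 CD-LFD mice had 1341, 1787 and 2408 CPM and the 4 CD-HFD mice 1293, 827, 912 and 994, beside 724 to 1058 (median 981) on control. In MlklKO the 4 CD-LFD mice had 1564, 1304, 1615 and 1546 CPM and the 3 CD-HFD mice 745, 449 and 752, beside 720 to 1038 (median 967) on control. The rise on CD-LFD was 0.99 ± 0.20 in Ripk3KO (adjusted p = 0.000414) and 0.70 ± 0.19 in MlklKO (adjusted p = 0.00381), with no overlap in either. The fall from CD-LFD to CD-HFD was called in Ripk3KO (-0.87 ± 0.22, adjusted p = 0.00938) and in MlklKO (-1.22 ± 0.23, adjusted p = 0.000166). The Ripk3KO call was lost without CD-LFD replicate 3 (adjusted p = 0.106). MlklKO alone had a called fall against control on CD-HFD (-0.52 ± 0.21, adjusted p = 0.0428), whose groups overlapped, and which was lost under 9 settings (adjusted p up to 0.226 among them) and reversed under 1, library size alone.

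The Glul values on CD-HFD depend on how libraries are scaled. With library size as the only scaling, the median change of all genes on CD-HFD moved from near 0 to 0.43 in WT, 0.49 in Ripk3KO and 0.49 in MlklKO. Glul then stood at 0.43 in WT (adjusted p = 0.0236, called higher) and at 0.0045 in MlklKO (adjusted p = 0.988). Relative to the median gene, Glul on CD-HFD in WT was thus near 0 under either scaling.

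Oat, the mitochondrial ornithine aminotransferase that feeds glutamate to glutamine synthetase in the same cells, parted from Glul in the comparisons with control in WT and fell with it from CD-LFD to CD-HFD. Its level in WT was 387 to 1081 CPM on control (median 664), 488 to 726 on CD-LFD (median 592) and 185 to 431 on CD-HFD (median 288). All 6 CD-HFD mice lay below all CD-LFD mice, and the range on control overlapped with both. The fall from control to CD-HFD was -1.28 ± 0.21 in WT (adjusted p = 3.93e-06), -1.54 ± 0.25 in Ripk3KO (adjusted p = 2.68e-06) and -1.32 ± 0.28 in MlklKO (adjusted p = 0.000135). From CD-LFD to CD-HFD Oat fell by -0.98 ± 0.21 in WT (adjusted p = 0.000632) and by -1.49 ± 0.29 in MlklKO (adjusted p = 0.000218), and the difference in Ripk3KO was -0.65 ± 0.28 (adjusted p = 0.144). On CD-LFD against control the genotypes were called differently: -0.30 ± 0.21 in WT (adjusted p = 0.30), -0.89 ± 0.27 in Ripk3KO (adjusted p = 0.0141) and 0.18 ± 0.24 in MlklKO (adjusted p = 0.572). The Ripk3KO call rests on values of 325, 487 and 552 CPM against 734 to 1005 (median 771) on control. It was lost without CD-LFD replicate 1 and with library size alone. In WT the change on CD-LFD became a called fall when control replicates 5 and 6 were left out (adjusted p = 0.0362). On CD-HFD and on control in WT, mean Glul was 865 ± 145 and 911 ± 269 CPM (SD, n = 6 each), while mean Oat was 302 ± 101 and 735 ± 280.

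Slc1a2, a high-affinity glutamate transporter of pericentral hepatocytes, had a ratio of 1.69 between its highest and lowest group means, against 2.88 for Glul and 3.49 for Oat. Its means in WT were 128 ± 39.5 CPM on control, 126 ± 12.2 on CD-LFD and 111 ± 22.6 on CD-HFD (SD, n = 6 each), and no WT diet comparison was called. The sole call in 9 diet comparisons was a fall in MlklKO from 170, 170, 185 and 221 CPM on CD-LFD to 94.5, 83.5 and 152 on CD-HFD (-0.76 ± 0.24, adjusted p = 0.017), which was lost with library size alone and without the library labelled CD-HFD replicate 1, CD-HFD replicate 2 or CD-LFD replicate 4.

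Rhbg, an ammonium transporter of the hepatocyte membrane at the central vein, had the largest range among the 10 genes, with a ratio of 7.17 between the highest and the lowest group mean. It was also the least counted, with 2 to 453 counts per library and 4 libraries at 3 counts or fewer. In WT its level was 0.341 to 2.44 CPM on control (median 1.19), 4.34 to 9.35 on CD-LFD (median 6.08) and 3.46 to 6.501 on CD-HFD (median 5.38). In no genotype did the control range touch that of either choline-deficient diet. The rise in WT was 2.35 ± 0.29 on CD-LFD (adjusted p = 6.10e-08) and 2.08 ± 0.29 on CD-HFD (adjusted p = 1.29e-07). Ripk3KO gave 2.62 ± 0.30 (adjusted p = 2.57e-08) and 2.25 ± 0.29 (adjusted p = 2.35e-08), from 0.628 to 1.93 CPM (median 1.24) on control to 6.67, 8.01 and 9.44 on CD-LFD, with 7.99, 5.26, 5.33 and 6.66 on CD-HFD. MlklKO gave 2.31 ± 0.29 (adjusted p = 1.22e-07) and 1.75 ± 0.32 (adjusted p = 2.26e-05), from 0.646 to 1.64 CPM (median 0.986) on control to 7.29, 6.26, 5.13 and 4.02 on CD-LFD, with 3.83, 3.13 and 4.67 on CD-HFD. Rhbg differed between the choline-deficient diets by -0.28 to -0.56 in the 3 genotypes, and none of these was called.

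Lect2, a secreted protein of hepatocytes and a known beta-catenin target, rose in all 6 comparisons of a choline-deficient diet with control. In WT its level was 68.4 to 138 CPM on control (median 86.3), 186 to 292 on CD-LFD (median 264) and 169 to 221 on CD-HFD (median 191). Control mice were below all others in each genotype. The rise on CD-LFD was 1.49 ± 0.15 in WT (adjusted p = 1.08e-09), 1.24 ± 0.18 in Ripk3KO (adjusted p = 1.75e-06) and 1.46 ± 0.17 in MlklKO (adjusted p = 1.25e-08). On CD-HFD it was 1.09 ± 0.15 in WT (adjusted p = 1.38e-07), 0.83 ± 0.17 in Ripk3KO (adjusted p = 6.50e-05) and 0.71 ± 0.18 in MlklKO (adjusted p = 0.00123). The MlklKO mice had 194, 193, 239 and 244 CPM on CD-LFD, against 144, 128 and 117 on CD-HFD. This difference was called (-0.75 ± 0.20, adjusted p = 0.00527), and the call was lost with library size alone (adjusted p = 0.183). The same difference in WT was at the threshold (-0.41 ± 0.15, adjusted p = 0.0454) and was lost under 16 alternative settings, with adjusted p up to 0.332. The rises of Rhbg and Lect2 against control kept their call under every alternative setting.

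Tbx3, a T-box transcription factor induced by beta-catenin in liver, fell on both diets and most on CD-HFD. In WT it was 34.2 to 60.9 CPM on control (median 46.4), 15.1 to 37.9 on CD-LFD (median 29.6) and 7.42 to 18.2 on CD-HFD (median 9.50). No CD-HFD mouse reached the control range. The change against control in WT was -1.98 ± 0.25 on CD-HFD (adjusted p = 1.49e-08) and -0.69 ± 0.24 on CD-LFD (adjusted p = 0.0273), and the latter call was lost under 8 settings. CD-HFD was lower than CD-LFD by -1.30 ± 0.24 (adjusted p = 0.000105). In MlklKO, Tbx3 was 27.7 to 59.3 CPM on control (median 47.2), 20.1, 18.9, 21.2 and 28.6 on CD-LFD, and finally 9.23, 12.4 and 11.5 on CD-HFD. The falls there were -1.05 ± 0.27 (adjusted p = 0.00279) and -2.05 ± 0.33 (adjusted p = 1.96e-06). CD-HFD was lower than CD-LFD by -1.002 ± 0.33 (adjusted p = 0.0249), a call lost with library size alone and without the library labelled CD-HFD replicate 1, CD-HFD replicate 4 or CD-LFD replicate 4. In Ripk3KO the 4 CD-HFD mice had 28.1, 17.7, 17.8 and 17.3 CPM against 27.0 to 65.7 (median 43.3) on control, a fall of -1.12 ± 0.27 (adjusted p = 0.000922). That call was lost with library size alone (adjusted p = 0.0813). The CD-LFD change in Ripk3KO was -0.69 ± 0.30 (adjusted p = 0.0861).

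**Figure D2:**
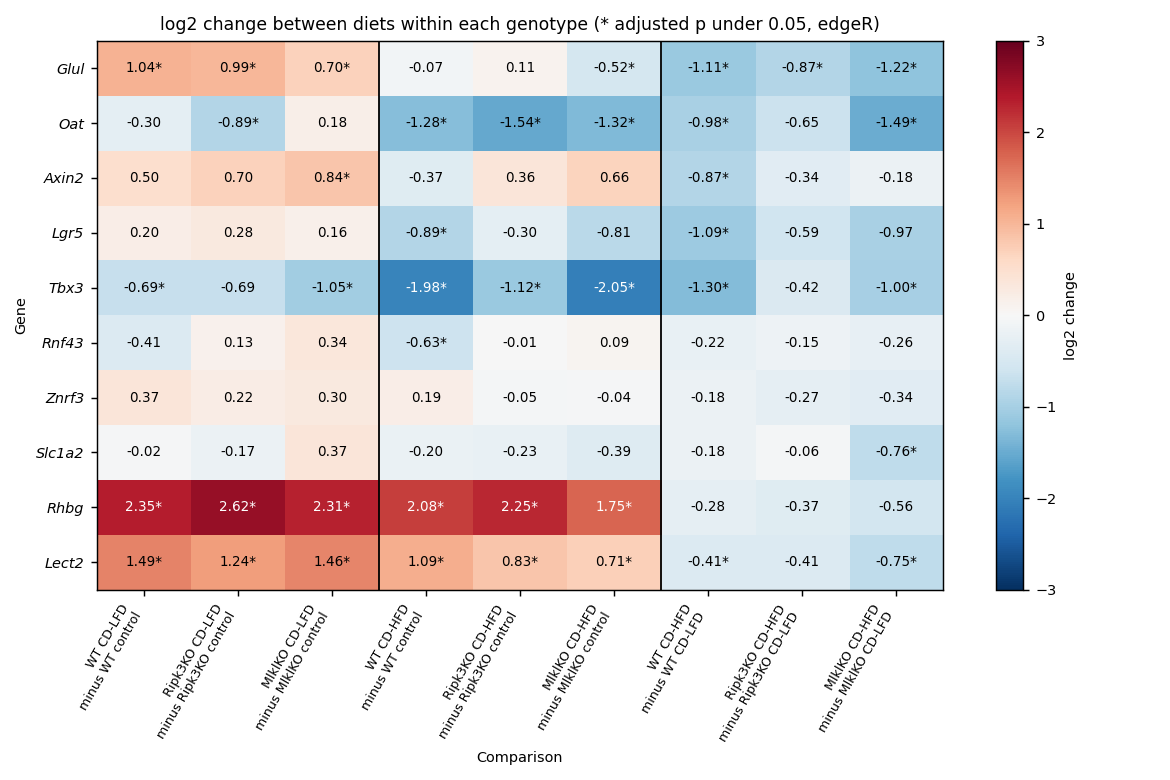
Log2 change of each gene (vertical axis) in the 9 comparisons of diets within a genotype (horizontal axis), with the colour giving the change and an asterisk an adjusted p under 0.05. Lect2 and Rhbg are called higher in all 6 comparisons with the control diet, and no gene is called higher on CD-HFD than on CD-LFD.

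Of the feedback genes of the pathway, Lgr5, Axin2 and Znrf3 were measured on few counts, from 14 per library for Lgr5 and from 15 for Axin2 and Znrf3. Axin2, the scaffold induced by Wnt in most tissues, had 6.76 to 14.1 CPM in WT control (median 9.65), 9.07 to 18.7 on CD-LFD (median 14.6) and 3.22 to 13.3 on CD-HFD (median 8.08). These ranges all overlapped. CD-HFD was lower than CD-LFD by -0.87 ± 0.24 (adjusted p = 0.00576), a call lost with the ratio of the clock genes Arntl and Dbp as a covariate (-0.77, adjusted p = 0.0613), while CD-LFD differed from control by 0.50 ± 0.24 (adjusted p = 0.122) and CD-HFD by -0.37 ± 0.25 (adjusted p = 0.218). In MlklKO, Axin2 rose on CD-LFD from 2.90 to 7.46 CPM (median 4.73) to values of 7.63, 9.24, 9.62 and 8.79 (0.84 ± 0.28, adjusted p = 0.0166). All 4 of those mice were above all 6 controls. In Ripk3KO the change on CD-LFD was 0.70 ± 0.29 (adjusted p = 0.0724), called with library size alone and with only the compared groups. The WT change on CD-LFD was called with library size alone (adjusted p = 0.0142).

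Lgr5, the R-spondin receptor of the hepatocytes next to the vein, fell in WT on CD-HFD. Its level was 5.53 to 13.7 CPM on control (median 8.41), 7.43 to 15.2 on CD-LFD (median 9.60) and 3.29 to 6.37 on CD-HFD (median 5.10). The CD-HFD range lay under the whole CD-LFD range and overlapped with control. The change was -1.09 ± 0.25 against CD-LFD (adjusted p = 0.00141) and -0.89 ± 0.27 against control (adjusted p = 0.00543). The call against control was lost without WT control replicates 5 and 6, the highest pair of that group (-0.55, adjusted p = 0.0959). It was also lost with library size alone (adjusted p = 0.216). In the knockouts no diet comparison called Lgr5, and the values on CD-HFD were -0.30 ± 0.30 in Ripk3KO (adjusted p = 0.425) and -0.81 ± 0.36 in MlklKO (adjusted p = 0.0608) against control.

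The ubiquitin ligase genes had the smallest ratios of highest to lowest group mean among the 10, 1.61 for Rnf43 and 1.52 for Znrf3. Rnf43 fell in WT on CD-HFD from 19.9 to 43.5 CPM (median 33.8) to 13.2 to 28.5 (median 22.6), with overlap (-0.63 ± 0.24, adjusted p = 0.027), and the call was lost under 9 settings, including RLE size factors (adjusted p = 0.055). With TMM scaling Znrf3 was called in none of the 9 diet comparisons by edgeR's quasi-likelihood test, and its group means lay between 11.1 and 16.8 CPM. Its change in WT was 0.37 ± 0.21 on CD-LFD (adjusted p = 0.189) and 0.19 ± 0.21 on CD-HFD (adjusted p = 0.477). Library size alone called both as higher (adjusted p = 0.00937 and 0.0039).

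In Ripk3KO, 4 of 10 were called on CD-LFD against control, where 24.1% of all genes were, and 4 on CD-HFD, where 46.3% were. The difference between the choline-deficient diets called Glul alone in Ripk3KO (8.83% of all genes). In MlklKO, 5 were called on CD-LFD (37.9% of all genes), 5 on CD-HFD (45.2%) and 5 between the choline-deficient diets, all lower on CD-HFD (23.7%, 9.14% as lower). The group sizes of 3 and 4 in the knockouts give larger errors than the WT groups of 6.

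The 3 calls between a knockout and WT on the same diet were all for MlklKO on the control diet. Axin2 in MlklKO control was 6.46, 3.26, 3.77, 5.69, 2.90 and 7.46 CPM, against 14.1, 10.02, 8.51, 6.76, 11.4 and 9.29 in WT control. Only the highest MlklKO mouse exceeded the lowest WT mouse. The difference was -1.03 ± 0.26 (adjusted p = 0.00291). Lgr5 was 2.89 to 9.91 CPM (median 4.38) against 5.53 to 13.7 (median 8.41), a difference of -0.90 ± 0.27 (adjusted p = 0.0127). Rnf43 was 14.2 to 33.3 CPM (median 19.7) against 19.9 to 43.5 (median 33.8), a difference of -0.68 ± 0.24 (adjusted p = 0.0324). Leaving out 1 library at a time, 2 of the 3 calls were left in 8 of 12 refits: Rnf43 lost its call in 7 of them (adjusted p up to 0.0795) and Lgr5 in 1, without WT control replicate 6 (adjusted p = 0.0508). Fitting only the compared groups kept Axin2 (adjusted p = 0.0174) and ended the calls of Lgr5 (adjusted p = 0.0699) and Rnf43 (adjusted p = 0.055). The ranges of all 3 genes overlapped, and 3 of 10 compares with 27.1% of all genes called in that comparison (14.1% as lower). Glul (0.03 ± 0.17, adjusted p = 0.913) and Tbx3 (-0.01 ± 0.24, adjusted p = 0.98) were not called. The comparisons of WT diets with control use the same 6 WT control mice.

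Among 8 tested Wnt feedback and target genes outside the 10, 4 were lower and 2 higher in MlklKO control than in WT control. Of all genes 27.1% were called there, 14.1% as lower. Nkd1, an inhibitor of the Dishevelled protein, was 1.74 to 4.92 CPM against 6.35 to 9.59 with no overlap (-1.10 ± 0.23, adjusted p = 0.000479). It was also called lower in Ripk3KO control (2.93 to 6.61 CPM, -0.75 ± 0.23, adjusted p = 0.0489), the 1 gene of the 8 called there, where 4.47% of all genes were. Notum, a secreted enzyme that inactivates Wnt ligands, was 12.6 to 30.3 CPM against 25.2 to 65.7 (-1.16 ± 0.24, adjusted p = 0.000394). Tnfrsf19 was lower by -1.32 ± 0.33 (adjusted p = 0.00251), and Sp5, a transcription factor induced by beta-catenin, by -1.02 ± 0.30 (adjusted p = 0.00912). Tcf7 (1.06 ± 0.25, adjusted p = 0.00154) and Ccnd1 (0.88 ± 0.33, adjusted p = 0.0446) were higher. The list's median was -0.75 and that of all genes -0.06. Without WT control replicates 5 and 6 the same 4 genes were lower, Nkd1 by -1.06 (adjusted p = 0.00272), Notum by -0.85 (adjusted p = 0.0131), Sp5 by -0.97 (adjusted p = 0.0344) and Tnfrsf19 by -1.57 (adjusted p = 0.0011), Tcf7 was higher by 0.88 (adjusted p = 0.0177), Ccnd1 was no longer called (adjusted p = 0.254), and the list's median was -0.27.

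The MlklKO and WT control groups also differed in clock phase, read as the log2 ratio of Arntl to Dbp, a pair of clock genes that peak at opposite hours. It ran from -4.98 to -3.69 in MlklKO control, from -7.38 to -5.72 in Ripk3KO control and from -7.75 to 2.72 in WT control. With that ratio as a covariate Axin2 stayed at -0.95 (adjusted p = 0.0189), Lgr5 at -0.86 (adjusted p = 0.0404) and Rnf43 at -0.94 (adjusted p = 0.00565). Nkd1, Notum, Sp5 and Tnfrsf19 were not examined with that covariate. Without WT control replicates 5 and 6, Axin2 stayed at -1.03 (adjusted p = 0.00992), but Lgr5 was -0.56 (adjusted p = 0.179) and Rnf43 -0.69 (adjusted p = 0.0627).

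Some markers of cell types were also called between these groups, where 27.1% of all genes were called. Of 9 endothelial markers 3 were higher in MlklKO control (Lyve1, Thbd and Pecam1) and 1 lower (Kdr), with a summed level of 139 to 206 CPM against 163 to 212 in WT control. Of 6 cholangiocyte markers 2 were higher (Epcam and Spp1). The summed level of the 6 was 77.8 to 146 CPM against 44.8 to 83.1, with Spp1 alone at means of 80.2 and 39.9. Cftr (means 0.0931 and 0.386 CPM) and Sox9 (means 10.29 and 16.15 CPM) were lower in MlklKO control and not called. Of 8 stellate cell and fibroblast markers 1 was higher (Pdgfrb), of 7 hepatocyte markers 1 was higher (Ahsg), and of 4 lymphocyte markers 1 was lower (Cd79a). None of the 6 macrophage and 4 dividing cell markers was called by edgeR, and 1 of them, Csf1r, had an unadjusted p under 0.05. Their part in the lower Wnt target genes was not tested.

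**Figure D3:**
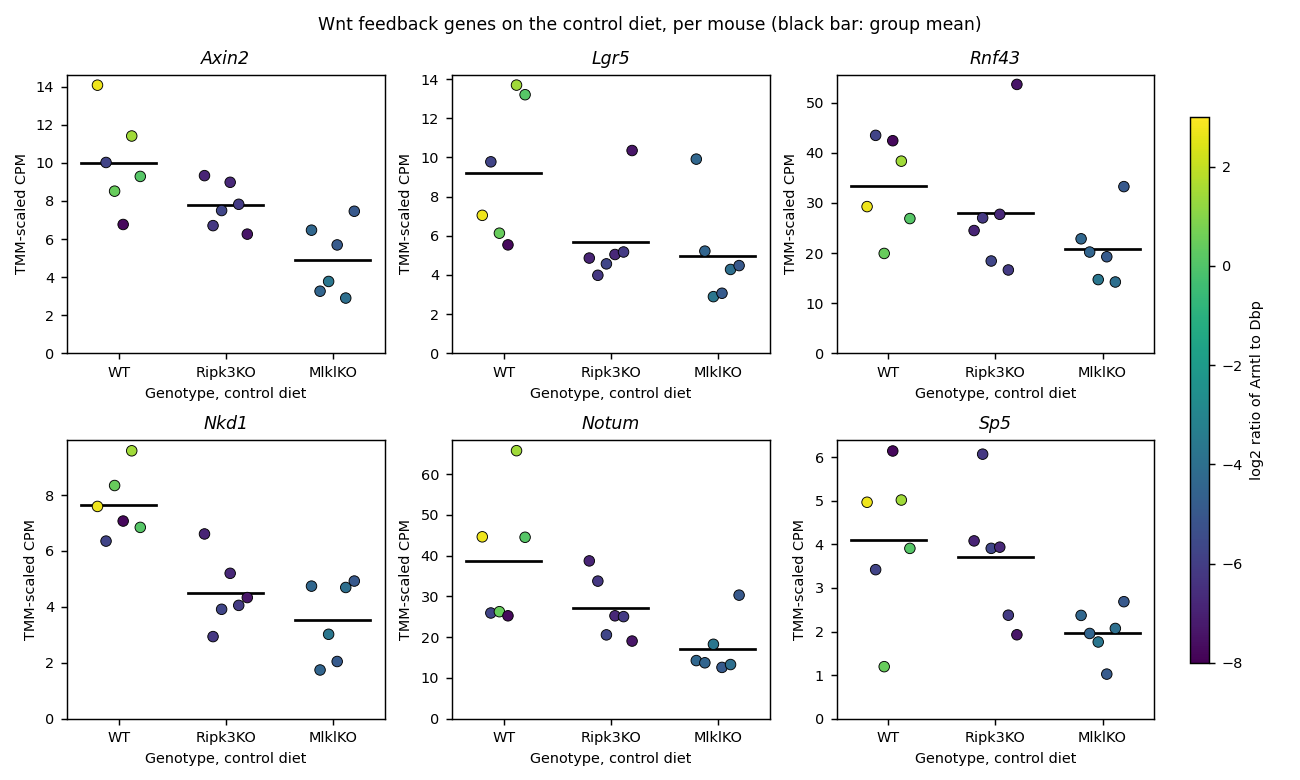
Levels (TMM-scaled CPM, y axis from 0) of Axin2, Lgr5, Rnf43, Nkd1, Notum and Sp5 in the 18 control-diet mice, by genotype on the x axis, with the group mean as a black bar and the colour giving the log2 ratio of Arntl to Dbp. The panels show genes called lower in MlklKO than in WT, while Tcf7 and Ccnd1 of the same list, called higher, are not drawn. The Nkd1 values of MlklKO (up to 4.92 CPM) and WT (from 6.35 CPM) do not overlap.

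In the other 5 comparisons of a knockout with WT none of the 10 genes was called. The share of all genes called was 4.47% for Ripk3KO on control, 1.10% on CD-LFD and 0.377% on CD-HFD, and 2.56% for MlklKO on CD-LFD and 0% on CD-HFD. At an unadjusted p under 0.05 edgeR gave 2, 0, 2, 3 and 2 of the 10 genes in these comparisons, and DESeq2 called 1 in all, Lgr5 in MlklKO on CD-LFD. There the 4 MlklKO mice had 4.92, 6.71, 6.90 and 3.28 CPM and the 6 WT mice 7.43 to 15.2, without overlap (-0.94 ± 0.29, adjusted p = 0.0734 by edgeR and 0.0317 by DESeq2). Slc1a2 on CD-LFD in MlklKO (170 to 221 CPM, against 111 to 142 in WT) and Lect2 on CD-HFD in MlklKO (117 to 144 CPM, against 169 to 221) did not overlap either. They missed the threshold, with 0.56 ± 0.20 (adjusted p = 0.116) for Slc1a2 and -0.58 ± 0.19 (adjusted p = 0.568) for Lect2.

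Whether a diet acted differently in a knockout than in WT was tested as an interaction. No gene of the 10 was called in any of the 4 interactions, where 0.0269% (Ripk3KO, CD-LFD), 0.478% (Ripk3KO, CD-HFD), 8.45% (MlklKO, CD-LFD) and 4.12% (MlklKO, CD-HFD) of all genes were. At an unadjusted p under 0.05 edgeR gave 3 of 40 tests, and DESeq2 called none. The lowest adjusted p was that of Axin2 for CD-HFD in MlklKO (0.128), with an interaction of 1.03 ± 0.39. Its mean went from 10.01 CPM on control to 7.85 on CD-HFD in WT, and from 4.92 to 7.75 in MlklKO. The calls of Axin2 and Lgr5 that appear in 1 genotype and not in another are thus not shown to differ between genotypes.

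The other genes of the zones help to place these changes. Of 14 further pericentral hepatocyte genes in WT, 1 was higher and 2 lower on CD-LFD (median -0.26), and 1 was higher and 7 lower on CD-HFD (median -0.82). Of all genes, 27.7% and 47.7% were called. With library size as the only scaling, the medians were 0.03 on CD-LFD and -0.32 on CD-HFD (3 higher and 5 lower), beside 0.27 and 0.43 for all genes, so the list lay below the median of all genes under either scaling. Slc13a3, a transporter of dicarboxylates, rose by 1.79 ± 0.21 (adjusted p = 2.34e-08) and 1.59 ± 0.21 (adjusted p = 4.29e-08). Cyp2c29, a cytochrome P450 that responds to xenobiotic receptors, was lowest of all, with -4.49 ± 0.48 (adjusted p = 2.27e-09) and -6.15 ± 0.52 (adjusted p = 8.47e-13). Cyp27a1, a sterol hydroxylase of bile acid synthesis, fell by -0.88 (adjusted p = 3.60e-06) and -1.63 ± 0.14 (adjusted p = 6.65e-13). The vasopressin receptor gene Avpr1a was called on CD-HFD (-1.52 ± 0.33, adjusted p = 0.000184).

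Of 15 periportal genes, none was higher and 8 lower on CD-LFD in WT (median -0.82), and 3 were higher and 9 lower on CD-HFD (median -1.18). Their medians remained below 0 with library size as the only scaling, at -0.52 and -0.69. The shares of all genes called in these comparisons were 27.7% and 47.7%. In MlklKO, 3 periportal genes were higher and 3 lower on CD-LFD (median 0.04), where 37.9% of all genes were called. In the interaction of CD-LFD with genotype 5 of the 15 were called higher in MlklKO than in WT, where 8.45% of all genes were called. In Ripk3KO 2 were higher and 5 lower on CD-LFD (median -0.52), where 24.1% of all genes were called. The 15 periportal genes include enzymes of the urea cycle, which takes up ammonia ahead of the glutamine synthetase layer, and enzymes of amino acid breakdown. Cps1, the first urea cycle enzyme, fell by -1.61 ± 0.39 (adjusted p = 0.00172) on CD-LFD and -1.72 ± 0.39 (adjusted p = 0.000313) on CD-HFD. Hal, which degrades histidine, fell by -1.65 ± 0.30 (adjusted p = 5.36e-05) and -2.04 ± 0.30 (adjusted p = 4.02e-07). Both zones thus had genes called lower on CD-HFD, and Glul, Lect2, Rhbg and Slc13a3 were the pericentral ones with a called rise on CD-LFD in WT. G6pc was called on CD-HFD (-2.91 ± 0.48, adjusted p = 2.78e-06).

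**Figure D4:**
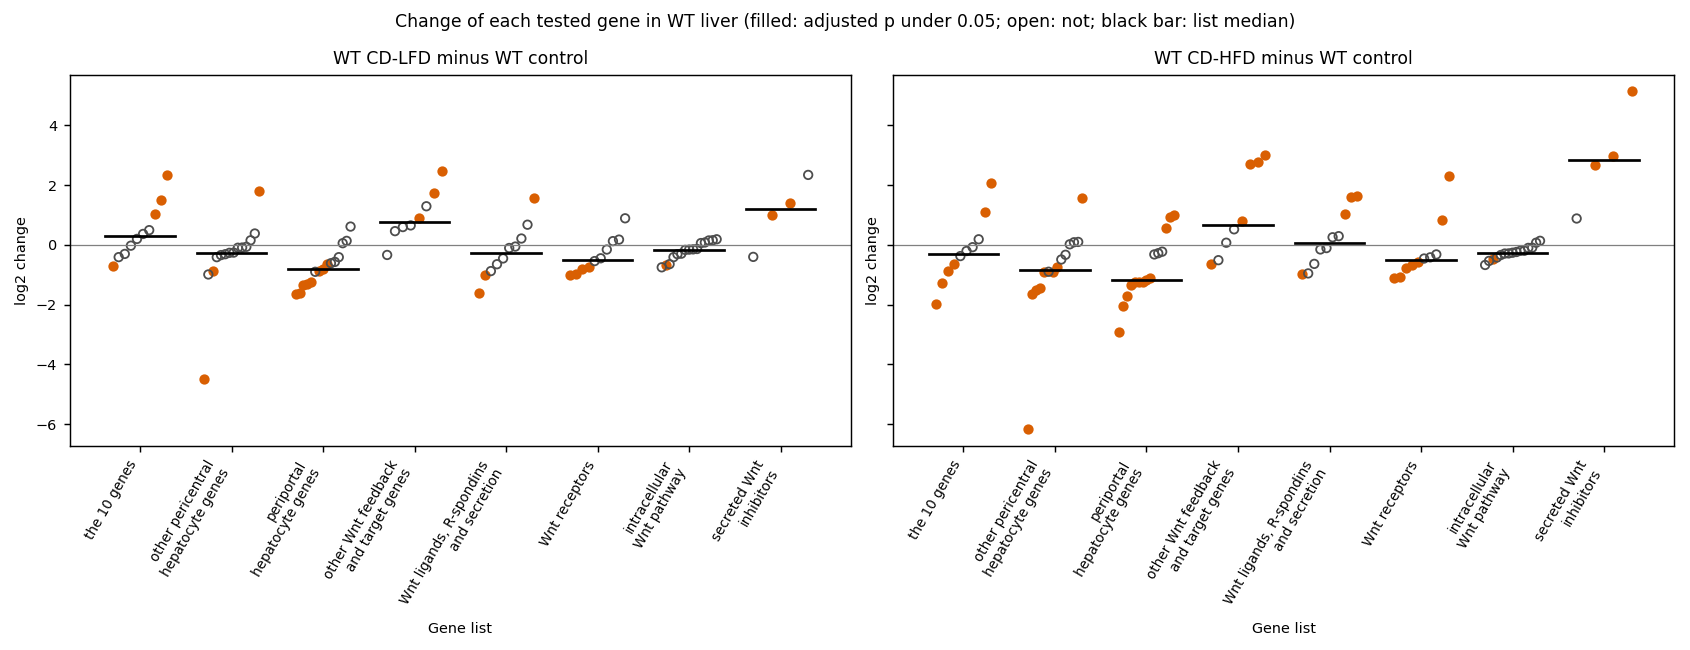
Log2 change (y axis) of each tested gene of the 10 and of 7 lists of zonation and Wnt pathway genes (x axis), in WT on CD-LFD and on CD-HFD against control, with filled points for an adjusted p under 0.05 and a black bar for the list median. On CD-HFD the medians of the pericentral (-0.82) and periportal (-1.18) lists lie under 0, and the secreted inhibitors have 3 called rises among 4 tested genes.

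Upstream in the pathway, ligand genes were called about as often as all genes, of which 27.7% were called on CD-LFD and 47.7% on CD-HFD. Of 10 tested genes for Wnt ligands, R-spondins and their secretion (4 more did not pass the filter), 1 was higher and 2 lower on CD-LFD (median -0.28), and 3 higher and 1 lower on CD-HFD (median 0.08). Library size alone moved these medians to 0.03 and 0.57 (4 higher and none lower on CD-HFD), and without WT control replicates 5 and 6 they were -0.35 and -0.11. Under library size alone the median of all genes was 0.27 on CD-LFD and 0.43 on CD-HFD. Wnt4 rose by 1.57 ± 0.34 (adjusted p = 0.000621) and 1.63 ± 0.34 (adjusted p = 0.000116), and Wls, the carrier that brings Wnt proteins to the cell surface, by 1.60 ± 0.23 on CD-HFD (adjusted p = 1.87e-07). Wnt2, a ligand of the central vein and sinusoidal endothelium, was 1.24 to 3.20 CPM on control and 0.167 to 1.26 on CD-LFD (-1.62 ± 0.44, adjusted p = 0.00519). Porcn, which adds the lipid that Wnt proteins need, was lower on both diets (-0.99 ± 0.28, adjusted p = 0.00672, and -0.98 ± 0.28, adjusted p = 0.00347).

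Of 10 tested receptor genes 4 were lower and none higher on CD-LFD (median -0.49), and on CD-HFD 5 were lower and 2 higher (median -0.52). The shares of all genes called were 27.7% on CD-LFD and 47.7% on CD-HFD, and library size alone moved the calls of all genes on CD-HFD toward rises. Lgr4, the relative of Lgr5 present in all hepatocytes, fell by -0.99 ± 0.19 (adjusted p = 0.000125) on CD-LFD and -1.10 ± 0.19 (adjusted p = 6.15e-06) on CD-HFD. The co-receptor gene Lrp6 (-0.76 ± 0.21, adjusted p = 0.00225) and Fzd7 (-1.06 ± 0.18, adjusted p = 5.80e-06) fell on CD-HFD as well. With library size alone the receptor counts were 2 lower on CD-LFD, and 2 lower and 2 higher on CD-HFD. Without WT control replicates 5 and 6 they were 5 lower on CD-LFD (median -0.66), and 7 lower and 2 higher on CD-HFD (median -0.81), and without WT CD-LFD replicates 5 and 6 they were 2 lower on CD-LFD. Of 15 intracellular components 1 was lower on each diet and none higher, while library size alone gave 2 higher on CD-LFD and 4 on CD-HFD and none lower. Without WT control replicates 5 and 6 these components split 2 higher and 5 lower on CD-LFD, and 1 higher and 6 lower on CD-HFD. Of 4 tested secreted inhibitors 2 rose on CD-LFD and 3 on CD-HFD, among them (1 on CD-LFD without WT CD-LFD replicates 5 and 6) Frzb (2.97 ± 0.32, adjusted p = 6.42e-10) and Dkk3 (2.69 ± 0.36, adjusted p = 7.74e-08) on CD-HFD.

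The other target genes split. Of 8 tested, 3 rose and none fell in WT on CD-LFD (median 0.77), where 27.7% of all genes were called. On CD-HFD 4 rose and 1 fell (median 0.67), where 47.7% of all genes were called. Library size alone gave 7 and 6 rises and no fall, and moved the calls of all genes on CD-HFD toward rises as well. The called rises were in Ccnd1, a cyclin of the G1 phase, by 2.48 ± 0.33 (adjusted p = 4.20e-07) and 2.70 ± 0.34 (adjusted p = 1.21e-08), the adhesion receptor Cd44 by 1.73 ± 0.29 (adjusted p = 2.28e-05) and 3.01 ± 0.29 (adjusted p = 2.74e-11), Tcf7, a transcription factor at the end of the Wnt pathway, by 0.90 ± 0.25 (adjusted p = 0.00584) and 0.81 ± 0.25 (adjusted p = 0.00616), and Myc by 2.76 ± 0.55 on CD-HFD (adjusted p = 5.91e-05). Ccnd1, Cd44 and Myc are induced by many signals beside Wnt. Notum fell on CD-HFD (-0.62 ± 0.24, adjusted p = 0.0266), a call lost with RLE size factors and without WT control replicates 5 and 6. In MlklKO, 7 of these 8 genes rose on CD-LFD, with Sp5 at 1.64 ± 0.30 (adjusted p = 5.65e-05) and Notum at 1.12 ± 0.26 (adjusted p = 0.000934), where Axin2 was also called higher and 37.9% of all genes were called. The control mice of this comparison are those in which Sp5, Notum and Axin2 were lower than in WT, and on CD-LFD none of the 8 genes was called between MlklKO and WT by edgeR, with 2 (Nkd1 and Tnfrsf19) at an unadjusted p under 0.05.

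Markers of cell types moved with diet, in comparisons where 27.7% of all genes were called on CD-LFD and 47.7% on CD-HFD in WT. In WT on CD-HFD, 6 of 7 hepatocyte markers were lower and 1 higher, and their summed level was 59960 to 98210 CPM against 91690 to 155300 on control. Of 9 endothelial markers 5 were lower (summed 86.4 to 137 CPM against 163 to 212), 7 of 8 stellate cell and fibroblast markers were higher (794 to 1447 CPM against 192 to 234) and 6 of 6 cholangiocyte markers were higher (678 to 1127 CPM against 44.8 to 83.1). Most of the cholangiocyte sum was Spp1, with means of 799 CPM on CD-HFD and 39.9 on control. On CD-LFD 3 of 7 hepatocyte markers and 4 of 9 endothelial markers were lower (summed endothelial 120 to 141 CPM), while 7 of 8 stellate cell and fibroblast markers (313 to 621 CPM), 4 of 6 cholangiocyte markers (120 to 349 CPM), 3 of 4 lymphocyte markers and 4 of 4 markers of dividing cells were higher. The lymphocyte and dividing cell markers had the same counts on CD-HFD. Of 6 macrophage markers 2 were higher and none lower on CD-LFD (summed 184.5 to 309 CPM against 167 to 217 on control), and 4 were higher and 1 lower on CD-HFD (702 to 1795 CPM). In whole tissue, fewer cells of a type and less RNA per cell cannot be told apart, and the part of these shifts in the changes above was not tested. On CD-LFD in WT the summed hepatocyte markers had a median of 92060 CPM, against 128000 on control. Alb, with means of 61450 and 86110 CPM, was not called (adjusted p = 0.056 by edgeR). The clock ratio moved with diet too, from a median of 0.28 in WT control to -1.40 on CD-LFD and -6.05 on CD-HFD, and with it as a covariate every call of the 10 genes in WT against the control diet was kept. Between the choline-deficient diets in WT, Axin2 and Lect2 lost their calls with that covariate (adjusted p = 0.0613 and 0.213).

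Between single mice of a group, Glul did vary with Oat and Slc1a2. After the mean of each genotype and diet group was removed, the log2 level of Glul over the 44 libraries correlated with that of Oat (Pearson r = 0.75, Spearman rho = 0.67) and of Slc1a2 (r = 0.74, rho = 0.68). Among 11151 genes ranked by r with Glul, Oat was at rank 6 and Slc1a2 at rank 9. The relation with Oat was positive in 6 of 9 groups and that with Slc1a2 in 8 of 9, and r was 0.67 and 0.73 without the 2 libraries farthest from the median of Glul. For Axin2 r with Glul was -0.10. For Lect2 it was -0.02, and 0.25 without WT control replicates 5 and 6. Axin2 varied with Rnf43 (r = 0.44, rho = 0.45) and Tbx3 with Rnf43 (r = 0.42, rho = 0.45). The points share their libraries and scaling, and these values are descriptions.

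Among the genes most like Glul in these deviations were Mmgt1 (r = 0.76) and Chmp3 (r = 0.75), and those most like Axin2 were Ppard, Notum and Nr0b2 (r = 0.57 each), among 11142 genes. Notum is itself a Wnt target. Ppard and Nr0b2 encode nuclear receptors.

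**Figure D5:**
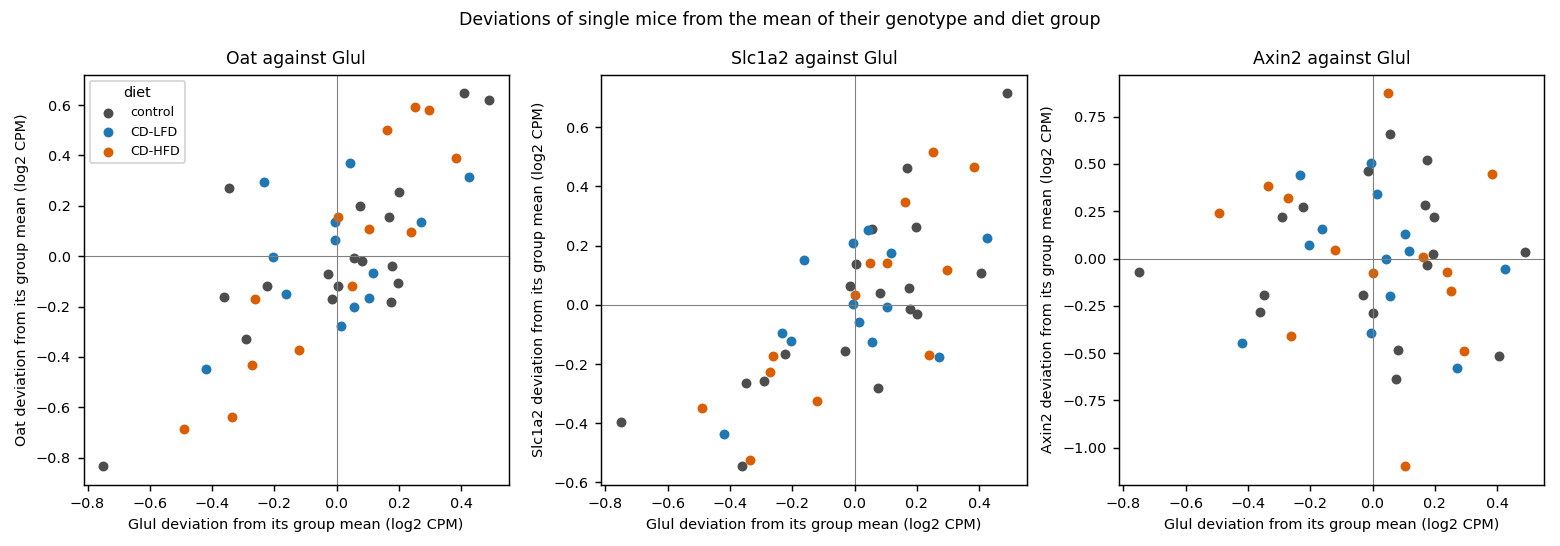
Deviation of each of the 44 mice from the mean of its genotype and diet group (log2) for a second gene on the y axis against Glul on the x axis, coloured by diet. Over all 44 mice the deviations of Glul correlate with those of Oat (r = 0.75, positive in 6 of 9 groups) and Slc1a2 (r = 0.74, positive in 8 of 9). For Axin2 r is -0.10.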

How the data were processed

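Liver RNA of 44 mice was sequenced from directional libraries, per the labels' protocols. The authors deposited their counts as a single table, with Ensembl identifiers in its lines, 44 libraries in its columns and whole numbers without normalization. The submitters' processing notes name FastQC, STAR, HTSeq, edgeR and limma, with builds GRCm39 and mm39. Roles, versions and the annotation are not given in the sources used here. The reference tables are of another build, so gene coordinates are not printed except for promoter windows (RefSeq, GRCm38.p6). Symbols matched 34373 of 35249 identifiers, and 876 (0.0838% of counts) had none.

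Groups came from the genotype and diet labels. edgeR 4.0.16 in R 4.3.3 (filterByExpr with minimum count 10, TMM, 1 mean per group over all 44 libraries, quasi-likelihood F test) gave 19 contrasts, with Benjamini-Hochberg adjustment within each and a threshold of 0.05. SE is the log2 change over the square root of F. Genes named were the 10 members, up to 3 called rises and 3 called falls per list, and the 3 genes most correlated with Glul and with Axin2 (mean log2 CPM of at least 1), of which 1 is not reported here. Log2 CPM for correlations used a prior count of 2. The members, lists and tests were chosen with earlier results of these data known. Alternatives were RLE size factors, library size alone, no count filter, DESeq2 1.42.0, only the compared groups, a robust fit, a replicate block, a clock covariate and leaving out each library. Leaving out WT control replicates 5 and 6 together, or WT CD-LFD replicates 5 and 6 together, was chosen after seeing the data. The script was tested on simulated data with known changes. No libraries of a group were duplicates (chi-square divided by its degrees of freedom was at least 7.22 in each of 93 pairs).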

Additional observations from a re-analysis of the deposited data

Results flagged for a closer look

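Single mice stood apart in 5 of 70 sets, each of 1 gene in a group of 4 to 6 mice, where chance gives 3.5. Ripk3KO control replicate 6 was high in Lgr5 (10.4 CPM, others 3.98 to 5.17) and in Rnf43 (53.7 CPM, others 16.6 to 27.7). Lgr5 was also high in MlklKO control replicate 1 (9.91 CPM, others 2.89 to 5.21). Tbx3 was high in Ripk3KO CD-HFD replicate 1 (28.1 CPM, others 17.3 to 17.8), and Slc1a2 in WT control replicate 2 (204 CPM, others 94.1 to 133). Without Ripk3KO control replicate 6, Lgr5 was called lower in Ripk3KO control than in WT control (adjusted p = 0.0491 by edgeR), and without WT control replicate 2 Slc1a2 was called higher there (adjusted p = 0.0137).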

How the results depend on the processing

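Of the calls for single genes, 400 refits without 1 library kept direction and call and 41 kept the direction only. Under the other settings 336 kept both, 30 kept the direction only and 1 reversed. Among results not called, 9 and 17 became called and 1 reversed with a call.

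Library size alone moved the median of all genes on CD-HFD against control to 0.49 in Ripk3KO and MlklKO. It moved the calls of all genes on CD-HFD in WT from 3496 higher and 3586 lower to 6813 and 1020. The 10 genes then split 4 higher and 2 lower in that comparison, in place of 2 and 4. Glul reversed in WT (0.43, CD-HFD against control) and in MlklKO (0.0045). MlklKO CD-HFD against CD-LFD fell from 5 genes to 2. MlklKO against WT on CD-LFD went from 0 to 2 with library size alone, 2 with only the compared groups and 1 with DESeq2. MlklKO against WT on control went from 3 to 1 with only the compared groups, and to 1 without WT control replicates 5 and 6.

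Leaving out 1 library gave 0 to 1 for Ripk3KO CD-HFD against CD-LFD (0 without CD-LFD replicate 3), 3 to 5 for MlklKO CD-HFD against CD-LFD (3 without the library labelled CD-HFD replicate 1) and 0 to 1 for Ripk3KO against WT on control. The cause of these shifts was not tested. With the clock covariate, Axin2 in WT CD-HFD against CD-LFD lost its call (-0.77, adjusted p = 0.0613).

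Same-numbered libraries of different groups had a median r of -0.01 over 146 pairs, with single pairs from -0.35 to 0.55. The labels do not say what the numbers mark, and a median over all pairs cannot show whether some groups share a batch. With the replicate block 4 of the 10 genes were called for WT CD-LFD against control and 6 for CD-HFD, as without it, and no other count of the 10 genes changed by over 1.5 times. Counts as low as 14 for Lgr5, 15 for Axin2 and Znrf3 and 2 for Rhbg limit these genes in the shallowest libraries, and the knockout groups of 3 and 4 mice limit all comparisons they enter.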
